A study of Homo sapiens with 7 samples.

Results

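The genes described here encode the collagens, the laminins, the integrins and a small group of other matrix proteins (FN1, SPARC, NID1, NID2 and HSPG2). They were picked by a rule on gene symbols, as every listed gene whose symbol has the form of a collagen, laminin or integrin chain, plus the named glycoproteins, and they number 71 of the 19775 genes listed. VTN, which the same rule names, was not analysed here. Of the 71 genes, 40 are collagens, 10 laminins, 16 integrins and 5 other glycoproteins. Poly(A) RNA had been sequenced from 7 samples of the human embryonic stem cell line H1, all wild type. All were grown in E8, a defined medium whose ingredients include insulin, transferrin, FGF2 and TGFβ. The control group was kept in E8 for 48 h (2 libraries), and the other groups received XMD892, an inhibitor used, as the title implies, to block the kinase ERK5, at 1 µM for 12 h (1 library), 24 h (2 libraries) or 48 h (2 libraries). E8 was sampled at 48 h alone, so treatment and harvest time differ together at 12 h and 24 h. Whether replicates came from separate cultures is not stated in the labels. The p-values therefore cover the spread between these samples, which may be technical.

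Collagens, laminins, nidogens, perlecan and fibronectin form the extracellular matrix, which cells secrete and to which they bind through integrins. Laminin trimers and a network of collagen IV, linked by nidogen and perlecan, make up the basement membrane, the sheet under epithelial cells. Human pluripotent stem cells grow as epithelial colonies and hold on to laminin mainly through the integrin pair of ITGA6 and ITGB1 and to vitronectin through ITGAV and ITGB5.

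The listed genes carried between 18528689 and 24148186 reads per library. Markers of pluripotent stem cells were present throughout, with a summed level of 136495 to 168879 normalised reads (reads divided by 1 factor per library) over 8 genes, of which POU5F1 and LIN28A supplied the most. Of the 8, 1 was lower than E8 at 12 h, 3 at 24 h and 2 at 48 h (12.5%, 37.5% and 25%), against 4.89%, 7.56% and 6.45% of all tested genes. NANOG fell from 6631 and 5818 in E8 to 2552 and 3046 at 48 h (limma adjusted p = 1.6e-05), and TDGF1 from 11878 and 10254 to 6213 and 6619 (limma adjusted p = 0.00081). Markers of primitive and parietal endoderm, cells that secrete much basement membrane, summed to 150 to 243 over 5 listed genes. Those of trophoblast and amnion summed to 132 to 356 over 4 listed genes, and those of mesenchyme to 4066 to 6167 over 4. THY1 alone gave 3970 to 6093 of the mesenchyme sum, and PDGFRB, S100A4 and ACTA2 each stayed at 76 or less. Both endothelial markers listed together gave 992 to 2780. No marker listed was at 0 in all libraries. The part of these levels in the results below was not tested. Both E8 libraries disagreed as a function of GC content: across 16023 genes the log2 difference of replicate 1 over replicate 2 had a Spearman correlation of -0.64 with transcript GC. This value was 0.01 in the 24 h pair, 0.2 in the 48 h pair. This difference runs through the matrix genes. The 19 tested members with a GC content of 60% or more were higher in E8 replicate 2 by a median of 0.45 on the log2 scale, 18 of the 19 on that side. The 27 members under 50% GC had a median of -0.10. Results of the members that rest on 1 E8 library are marked below, and those of the other lists are given together after them.

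ITGB1, the beta chain of most matrix-binding integrins, had the highest level of the set per length, at 1379 normalised reads per kilobase of exon on average over the 7 libraries. Next came COL26A1, an emilin-type collagen, at 1197, COL18A1, whose C-terminal fragment is endostatin, at 1168, ITGB5 at 1144, COL6A1 at 1134 and SPARC, a collagen-binding secreted protein, at 1134. LAMC1, the gamma chain of most laminins, followed at 669. The first 6 overlapped across libraries: COL18A1, for example, ran from 707 to 1466 and ITGB5 from 813 to 1779 per kilobase. Of the other chains, ITGA6 averaged 399 per kilobase, LAMB1 345, FN1 326, COL4A2 290, COL4A1 282, NID1 258, LAMA1 254, LAMA5 215, LAMB2 209 and ITGAV 185. At the other end, COL20A1, ITGA10, ITGA11, COL15A1, COL10A1 and COL17A1 had a mean under 10 normalised reads and were not tested. The lowest tested member was COL28A1, with a mean of 14.4, and the highest untested one ITGA11, with 8.73.

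**Figure D1:**
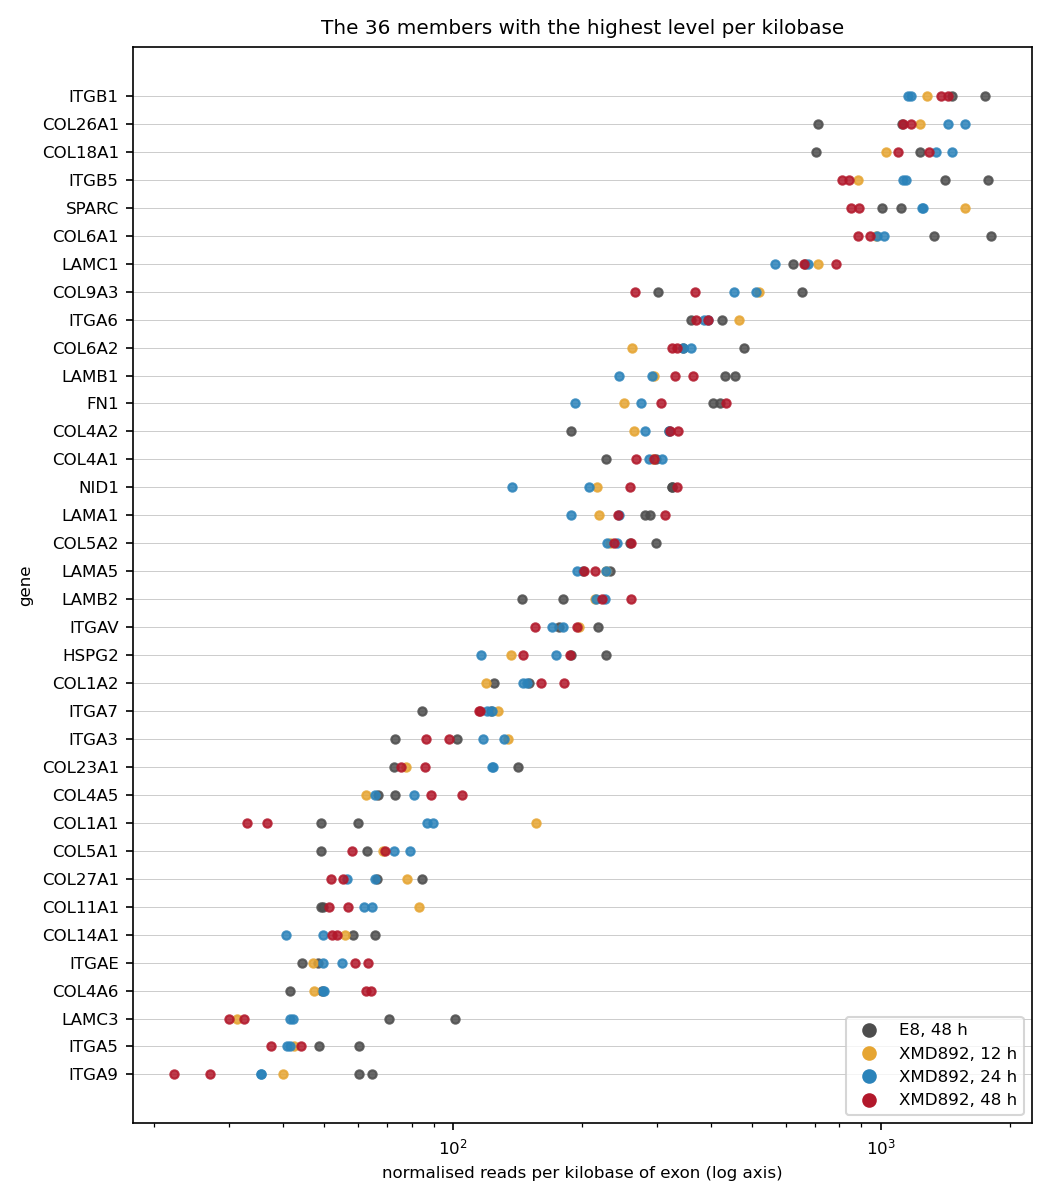
Levels of the 36 matrix genes with the highest mean per kilobase, as normalised reads per kilobase of exon on a log axis, with 1 point per library coloured by group (E8 at 48 h, XMD892 at 12, 24 and 48 h). ITGB1 (mean 1379 per kilobase), COL26A1 (1197) and COL18A1 (1168) lead, and for LAMC3 both E8 libraries lie above all treated libraries.

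The 65 tested members leaned lower under XMD892. At 48 h, 15 were lower than in E8 and 2 higher by limma with a Benjamini-Hochberg adjusted p below 0.05, which is 23.1% and 3.08% of the members, against 6.45% lower and 5.08% higher among all 16351 tested genes. At 24 h, 18 were lower (27.7%) and 5 higher (7.69%), against 7.56% and 8.66% of all genes. At 12 h, 6 were lower and 6 higher (9.23% each), against 4.89% and 2.56%. Between 24 h and 48 h, 3 fell (4.62%) and 2 rose (3.08%), against 0.856% and 0.349%. The median log2 fold change of the members was -0.15 at 12 h, -0.24 at 24 h and -0.33 at 48 h, while that of all genes was 0.02, 0.01 and 0.02. The members had about the median level of all tested genes, with 379 against 372 normalised reads, but longer transcripts, with a median exon length of 8211 against 4629 bases. These are bulk samples, in which fewer cells of a type and less RNA per cell cannot be told apart.

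Of the 65 tested members, 33 passed in at least 1 of the 4 comparisons and 32 in none. In all 57 combinations of gene and comparison that passed, the libraries of the compared groups did not overlap. With 1 or 2 libraries per group this adds no support to the calls. Combinations that did not pass could show it too, such as COL11A1 at 48 h (limma adjusted p = 0.68). Its share among all genes was not counted. Both 24 h and 48 h held 9 genes that passed, of which 8 were lower at both times and 1, COL1A1, was higher at 24 h and lower at 48 h. Another 10 genes were lower at 24 h without passing at 48 h, and 6 were lower at 48 h without passing at 24 h. COL1A1, COL6A1, ITGB5 and LAMC3 passed at all 3 times. The counts depend on single libraries. At 48 h the 17 members became 10 without 48 h replicate 1 and 11 without 48 h replicate 2, at 24 h the 23 became 10 without 24 h replicate 1, and at 12 h the 12 became 22 without E8 replicate 2. The calls among all tested genes moved too: from 1884 to 791 and 823 at 48 h without 48 h replicates 1 and 2, from 2652 to 1105 at 24 h without 24 h replicate 1, and from 1219 to 2941 at 12 h without E8 replicate 2. The direction of the calls depended on the E8 library, among the members and among all genes. In both, the share of higher calls was larger without E8 replicate 2 than without E8 replicate 1 at 12, 24 and 48 h. At 12 h the balance of higher and lower calls turned in both. Without E8 replicate 1 the members' median log2 fold change was -0.23, -0.35 and -0.43 at 12, 24 and 48 h. Without E8 replicate 2 it was -0.06, -0.13 and -0.26. That of all genes lay between -0.00 and 0.02 in these fits. Between 24 h and 48 h the number of calls also moved with single libraries, among the members and among all genes. It rose most in both without an E8 library, which enters this comparison through the estimate of the spread alone. The members' median log2 fold change there was -0.03 without E8 replicate 1 or 2, as with all libraries. After removal of the GC trend from every library, 29 members passed at 48 h, 22 lower and 7 higher, while the calls among all genes went from 1884 of 16351 to 3282 of 16023. That is 33.8% of the members lower and 10.8% higher, against 8.91% and 11.6% of all tested genes. The share of higher members was thus near that of all genes.

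**Figure D2:**
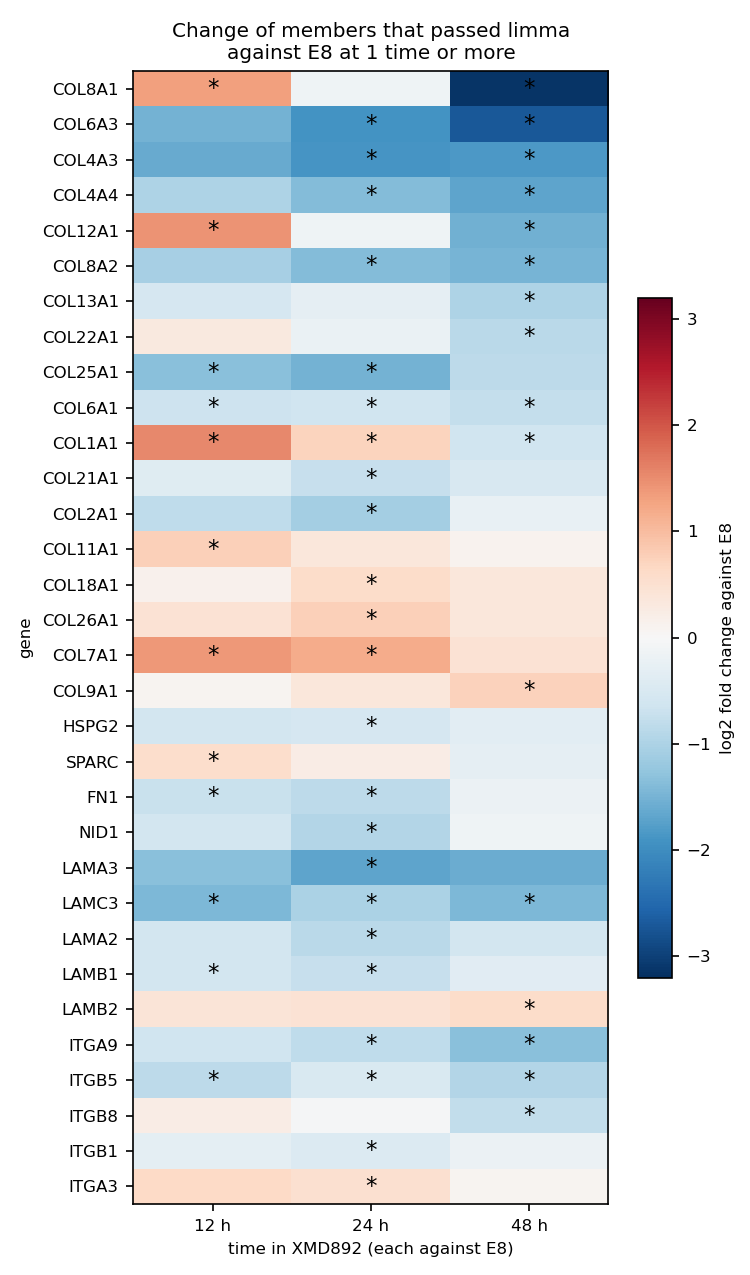
Log2 fold changes against E8 of 32 matrix genes that passed limma against E8 at 1 time or more, with 1 row per gene and 1 column per time in XMD892 (12, 24 and 48 h); stars mark the 51 combinations that passed. The 48 h column runs from -3.15 for COL8A1 to 0.73 for COL9A1.

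The collagens split in time. At 12 h, 5 of 36 tested collagens were higher than in E8 (13.9%) and 2 lower (5.56%), against 2.56% and 4.89% of all tested genes. At 48 h, 1 was higher (2.78%) and 10 lower (27.8%), against 5.08% and 6.45%. Their median log2 fold change was -0.05 at 12 h, -0.16 at 24 h and -0.41 at 48 h. The genes that were higher at 12 h came from several collagen classes, namely the fibrillar COL1A1 and COL11A1, the fibril-associated COL12A1, the network-forming COL8A1 and COL7A1, which forms the anchoring fibrils under epithelia. The 12 h group has 1 library, whose spread is taken to be that of the other groups.

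COL8A1, the alpha 1 chain of the collagen of sheet-like networks such as Descemet's membrane, lies on chromosome 3 at 99638475 to 99799226 (GRCh38). It stood at 72.5 and 90.9 normalised reads in E8 (replicates 1 and 2, in this order throughout), 201 after 12 h, 70.8 and 77.6 after 24 h, and 9.72 and 6.94 after 48 h. The 12 h library lay above all others, the 24 h libraries within or just under the E8 range and the 48 h libraries, with 9 and 7 reads, far below. Against E8, COL8A1 was 8.9-fold lower at 48 h (81.7 ± 13 to 8.33 ± 1.96, SD, n = 2 each), a log2 fold change of -3.15 ± 0.31 (SE) with a limma adjusted p of 5.5e-07. Between 24 h and 48 h it fell 8.14-fold (log2 fold change -3.03, limma adjusted p = 6.6e-06). Its log2 fold change of 1.30 at 12 h had a limma adjusted p of 0.039, which became 0.1 without E8 replicate 1. COL8A2, the other chain of collagen VIII, did not share the 12 h peak. COL8A2 stood at 72.5 and 93.4 in E8, 38.6 after 12 h, 32.3 and 29 after 24 h, and 27 and 30.7 after 48 h, with every treated library below both E8 libraries. It was lower at 24 h (log2 fold change -1.40, limma adjusted p = 0.0055) and at 48 h (-1.48, limma adjusted p = 0.0042).

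COL12A1, a fibril-associated collagen with an interrupted triple helix that decorates collagen I fibrils, lies on chromosome 6 at 75084326 to 75206051. It had 464 and 419 normalised reads in E8, 1201 after 12 h, 361 and 445 after 24 h, and 157 and 149 after 48 h. The order was the same as for COL8A1: 12 h above E8, 24 h overlapping E8, 48 h below. COL12A1 rose 2.72-fold at 12 h (log2 fold change 1.44 ± 0.22 SE, limma adjusted p = 0.00022) and was 2.88-fold lower than E8 at 48 h (-1.53 ± 0.18, limma adjusted p = 5.7e-06). The drop from 24 h to 48 h was 2.62-fold (-1.39, limma adjusted p = 0.00011). Its upstream sequence is shown because it is the collagen with the largest fold between 12 h and 48 h among those with a matched RefSeq promoter. Capitals mark matches on either strand to a GC box (GGGCGG) and a TEAD site (GGAATG).
COL12A1 (GRCh38.p14, chr6:75206054-75206303, minus strand): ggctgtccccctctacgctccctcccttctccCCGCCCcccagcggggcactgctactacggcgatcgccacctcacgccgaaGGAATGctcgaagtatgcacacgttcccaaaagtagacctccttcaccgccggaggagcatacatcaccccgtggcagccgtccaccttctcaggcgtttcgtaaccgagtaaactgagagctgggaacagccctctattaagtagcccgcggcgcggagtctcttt
Among 35116 RefSeq promoters, windows of the same 250 bases held a GC box in 42.6%, a TEAD site in 11.9%, a CCAAT box (CCAAT) in 32%, a TATA box (TATAAA) in 10.7% and an AP-1 site (TGANTCA) in 6.57%, counted on both strands. Of the 71 members 54 had a RefSeq promoter, with 71 windows in all because some genes have more than 1. Counted by gene with a match in any of its windows, 35 held a GC box, 16 a CCAAT box, 8 a TATA box, 8 a TEAD site and 2 an AP-1 site. The shares above are counted by window, so these counts by gene cannot be set against them. These matches describe letters and are not shown to be bound.

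COL1A1 and COL1A2 encode both chains of collagen I, the main fibrillar collagen, in which COL1A1 usually supplies more of the trimer than COL1A2. COL1A1 (chromosome 17 at 50183289 to 50201632) stood at 481 and 589 normalised reads in E8, 1534 after 12 h, 882 and 851 after 24 h, and 361 and 324 after 48 h. No group overlapped another. COL1A1 rose 2.88-fold at 12 h (log2 fold change 1.53, limma adjusted p = 5.3e-05) and 1.63-fold at 24 h (0.70, limma adjusted p = 0.0064). At 48 h it was 1.55-fold lower than E8 (-0.64, limma adjusted p = 0.014), and it dropped 2.53-fold between 24 h and 48 h (-1.34, limma adjusted p = 7.5e-05). The 24 h call had an adjusted p of 0.067 without 24 h replicate 1 in limma, and the 48 h call had 0.063 and 0.15 without 48 h replicates 1 and 2. COL1A2 had 1388 and 1678 in E8, 1333 after 12 h, 1627 and 1662 after 24 h, and 2025 and 1791 after 48 h, and passed in no comparison (limma adjusted p = 0.58 at 12 h and 0.18 at 48 h). With the GC trend removed it passed at 48 h (log2 fold change 0.37, limma adjusted p = 0.037). Per kilobase, the ratio of COL1A1 to COL1A2 was 0.394 and 0.399 in E8, 1.31 after 12 h, 0.616 and 0.582 after 24 h, and 0.202 and 0.206 after 48 h. Replicates of a group lay close together and the groups did not overlap.

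COL11A1, a minor fibrillar collagen that sits inside collagen II fibrils, had 446 and 452 normalised reads in E8, 756 after 12 h, 587 and 563 after 24 h, and 515 and 465 after 48 h. Its rise at 12 h was 1.68-fold (log2 fold change 0.75, limma adjusted p = 0.023). COL7A1 had 63.7 and 62 in E8, 167 after 12 h, 167 and 124 after 24 h, and 61.6 and 123 after 48 h. All 12 h and 24 h libraries of COL7A1 lay above E8, while the 48 h libraries lay on both sides. Its log2 fold change was 1.40 at 12 h (limma adjusted p = 0.015) and 1.18 at 24 h (limma adjusted p = 0.007, and 0.051 without 24 h replicate 1).

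**Figure D3:**
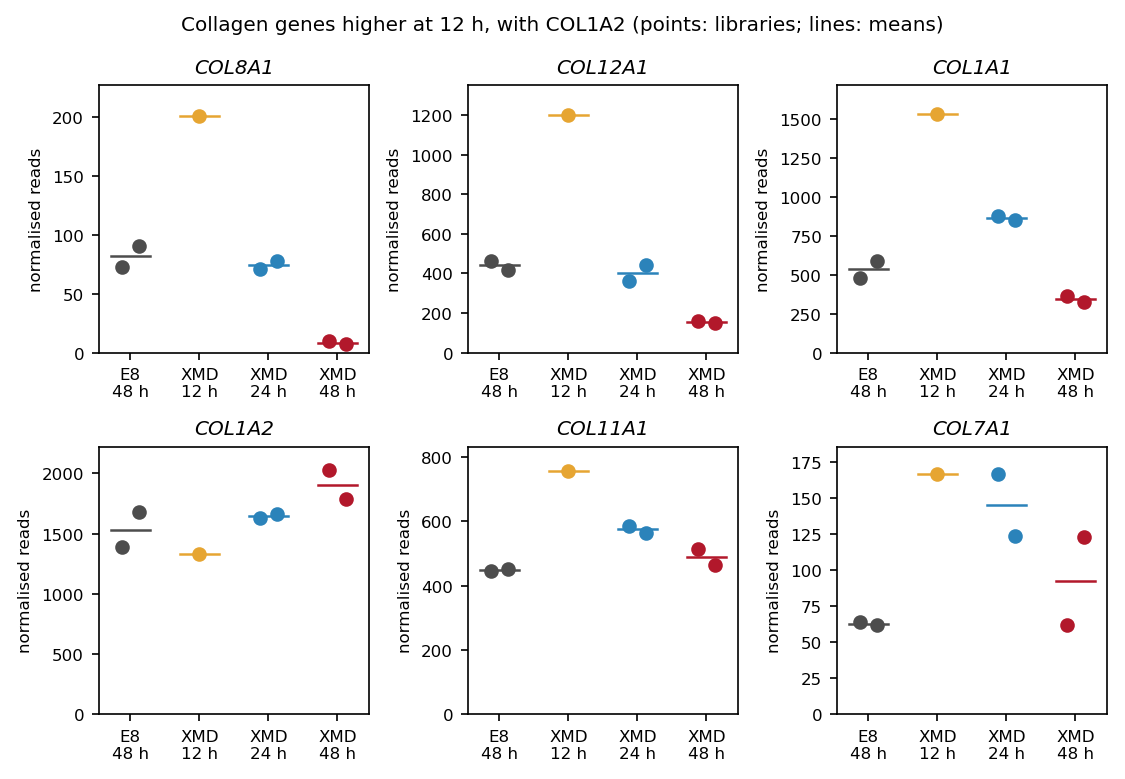
Normalised reads of COL8A1, COL12A1, COL1A1, COL11A1 and COL7A1, the collagens higher than E8 at 12 h, and of COL1A2; points are libraries and lines group means. COL8A1, COL12A1 and COL1A1 peak at 12 h (201, 1201 and 1534) and end below E8 at 48 h, while COL1A2 does not pass in any comparison.

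Collagen IV genes lie in head-to-head pairs that start on opposite strands from a shared stretch of DNA. COL4A1 and COL4A2, the chains of nearly all basement membranes, start 126 bases apart on chromosome 13. COL4A3 and COL4A4, of the kidney and lung, start 418 bases apart on chromosome 2, and COL4A5 and COL4A6 start 379 bases apart on chromosome X. The sequences are shown because both genes of a pair share them: all 126 bases for the first, and the 250 bases before the start of COL4A3 and of COL4A5 for the others. Capitals mark GC boxes and CCAAT boxes on either strand.
COL4A1 and COL4A2 (GRCh38.p14, chr13:110307158-110307283, plus strand): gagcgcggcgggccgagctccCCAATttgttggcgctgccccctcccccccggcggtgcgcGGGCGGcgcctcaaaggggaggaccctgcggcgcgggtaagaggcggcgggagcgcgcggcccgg
COL4A3 (GRCh38.p14, chr2:227164374-227164623, plus strand): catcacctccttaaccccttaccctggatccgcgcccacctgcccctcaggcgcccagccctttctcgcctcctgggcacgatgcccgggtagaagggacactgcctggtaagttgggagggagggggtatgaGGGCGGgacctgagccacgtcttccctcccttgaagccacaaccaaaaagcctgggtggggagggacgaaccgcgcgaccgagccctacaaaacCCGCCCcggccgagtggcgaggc
COL4A5 (GRCh38.p14, chrX:108439588-108439837, plus strand): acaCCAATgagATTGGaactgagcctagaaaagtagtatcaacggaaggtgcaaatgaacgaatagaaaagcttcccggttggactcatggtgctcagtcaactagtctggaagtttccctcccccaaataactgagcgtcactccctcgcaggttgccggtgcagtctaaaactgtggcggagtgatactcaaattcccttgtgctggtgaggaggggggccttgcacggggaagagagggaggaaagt
The stretch between COL4A1 and COL4A2 is 80.2% G and C and holds 1 GC box and 1 CCAAT box. That before COL4A3 is 66.4% G and C with 2 GC boxes, and that before COL4A5 is 51.2% with 2 CCAAT boxes. In all promoters a 126-base window held a GC box in 34.6% and a CCAAT box in 21.1%.

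COL4A3 and COL4A4 were lower together. COL4A3 had 34.1 and 29.7 normalised reads in E8, 9.66 after 12 h, 4.17 and 14 after 24 h, and 5.4 and 11.9 after 48 h, which is 39 and 36 reads in E8 and 4 to 15 in the treated libraries. COL4A4 had 67.2 and 51.2 in E8, 29 after 12 h, 22.9 and 20.6 after 24 h, and 16.2 and 18.8 after 48 h. For both genes every treated library lay below both E8 libraries. COL4A4 was 2.63-fold lower at 24 h (limma adjusted p = 0.014) and 3.23-fold lower at 48 h (limma adjusted p = 0.0048). COL4A3 was 3.73-fold lower at 24 h (limma adjusted p = 0.034) and 3.61-fold lower at 48 h (limma adjusted p = 0.047). The COL4A3 calls are weak: without 24 h replicate 1 the 24 h adjusted p was 0.36, without 48 h replicate 1 the 48 h value was 0.31, and without E8 replicate 1 they were 0.15 and 0.17 (limma). Without E8 replicate 2 they were 0.05 and 0.064, and without 48 h replicate 2 the 48 h value was 0.057. For COL4A4, limma without E8 replicate 1 gave an adjusted p of 0.13 at 24 h and 0.053 at 48 h, and without 24 h replicate 2 it gave 0.064 at 24 h.

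The other pairs did not pass in any comparison. COL4A1 had 3359 and 4399 normalised reads in E8, 4312 after 12 h, 4230 and 4541 after 24 h, and 3953 and 4340 after 48 h. COL4A2 had 3641 and 6152 in E8, 5114 after 12 h, 5433 and 6158 after 24 h, and 6199 and 6474 after 48 h. The treated libraries of COL4A1 lay inside the E8 range but for 1 at 24 h, and COL4A2 spanned a wide E8 range. COL4A5 had 790 and 870 in E8, 741 after 12 h, 959 and 780 after 24 h, and 1053 and 1246 after 48 h, and COL4A6 had 386 and 459, then 439, then 463 and 462, then 596 and 581. At 48 h both lay above both E8 libraries, with log2 fold changes of 0.47 and 0.48 and limma adjusted p of 0.066 and 0.064. With the GC trend removed both passed as higher at 48 h, by 0.52 and 0.45 (limma adjusted p = 0.014 and 0.016).

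Collagen VI, which forms beaded filaments from COL6A1, COL6A2 and COL6A3, was lower in some of its chains. COL6A1 (chromosome 21 at 45981737 to 46005050) had 7098 and 9674 normalised reads in E8, 5208 after 12 h, 5220 and 5447 after 24 h, and 5044 and 4722 after 48 h, so that all treated libraries lay within a narrow band below E8. Its log2 fold changes were -0.67, -0.64 and -0.76 at 12, 24 and 48 h (limma adjusted p = 0.031, 0.0073 and 0.0021). Without 24 h replicate 1 the 24 h value was 0.063 in limma. COL6A3 had 38.4 and 67.8 in E8, 17.2 after 12 h, 14.6 and 11.2 after 24 h, and 5.4 and 8.93 after 48 h, from 44 and 82 reads down to 5 and 9. It was 6.53-fold lower at 48 h (log2 fold change -2.71 ± 0.49 SE, limma adjusted p = 0.00081) and 3.77-fold lower at 24 h (limma adjusted p = 0.01, and 0.082 without E8 replicate 2). COL6A2 had means of 2216 ± 507 in E8 and 1775 ± 35.1 at 48 h (SD, n = 2) and passed in no comparison, with its lowest limma adjusted p of 0.051 at 12 h. With the GC trend removed COL6A2 passed as lower at all 3 times, with log2 fold changes of -0.50, -0.44 and -0.33 at 12, 24 and 48 h (limma adjusted p = 0.014, 0.0069 and 0.031).

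Among the remaining collagens, COL25A1, a transmembrane collagen of neurons, had 89.9 and 134 normalised reads in E8, 42.9 after 12 h, 39.6 and 35.5 after 24 h, and 65.9 and 55.5 after 48 h. It was 2.52-fold lower at 12 h (limma adjusted p = 0.024, and 0.078 without E8 replicate 2) and 2.88-fold lower at 24 h (limma adjusted p = 0.0013). COL13A1, a transmembrane collagen of cell junctions, had 176 and 264 in E8, 148 after 12 h, 170 and 187 after 24 h, and 110 and 108 after 48 h, and was lower at 48 h (log2 fold change -0.98, limma adjusted p = 0.0058). The highest transmembrane collagen per kilobase, COL23A1, had 274 and 535 in E8, which takes in 293 after 12 h, 468 and 465 after 24 h, and 285 and 323 after 48 h. COL23A1 passed in no comparison. Its fall between 24 h and 48 h passed with the compared groups alone (log2 fold change -0.62, limma adjusted p = 0.0078). With the GC trend removed it did not (-0.52, limma adjusted p = 0.13). COL2A1, the fibrillar collagen of cartilage, had 261 and 329 in E8, 165 after 12 h, 114 and 166 after 24 h, and 256 and 244 after 48 h. COL2A1 was 2.13-fold lower at 24 h (limma adjusted p = 0.0016) and rose 1.82-fold between 24 h and 48 h, with a limma adjusted p of 0.048. That rise had an adjusted p of 0.61, 0.42 and 0.18 in limma without 24 h replicate 1, 48 h replicate 1 and 48 h replicate 2, and 0.053 in edgeR and 0.059 in DESeq2.

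Of the fibril-associated collagens other than COL12A1, COL21A1, COL22A1 and COL9A1 passed at 1 time each, and COL14A1, COL16A1, COL9A2 and COL9A3 at none. COL21A1 had 170 and 152 normalised reads in E8, 122 after 12 h, 92.7 and 98.2 after 24 h, and 108 and 118 after 48 h, and passed at 24 h (log2 fold change -0.75, limma adjusted p = 0.024). COL22A1, found at tissue junctions, had 137 and 206 in E8, 207 after 12 h, 136 and 154 after 24 h, and 97.2 and 87.3 after 48 h, and passed at 48 h (-0.86, limma adjusted p = 0.017). COL9A1, a chain of the cartilage collagen IX, had 114 ± 20.2 in E8 and 189 ± 29.6 at 48 h (SD, n = 2) and was the collagen that was higher at 48 h (0.73, limma adjusted p = 0.034). None of these calls held in every fit. Without single libraries of the groups compared, the limma adjusted p rose as far as 0.16 for COL21A1 (without 24 h replicate 1; 0.11 without E8 replicate 1 and 0.079 without 24 h replicate 2). It rose as far as 0.13 for COL22A1 (without 48 h replicate 2; 0.098 without E8 replicate 2 and 0.068 without 48 h replicate 1) and 0.27 for COL9A1 (without 48 h replicate 2; 0.16 without E8 replicate 1 and 0.074 without 48 h replicate 1). COL9A3, the most abundant fibril-associated collagen per kilobase, had 1462 and 3173 in E8, 2508 after 12 h, 2472 and 2198 after 24 h, and 1288 and 1777 after 48 h, a spread in E8 that covers all other groups but 1 library of 48 h. Its fall between 24 h and 48 h (log2 fold change -0.62) passed with the compared groups alone (limma adjusted p = 0.0011) and with replicate numbers as a block (0.045). With the GC trend removed it did not (-0.49, limma adjusted p = 0.18). The most abundant fibrillar collagen per kilobase, COL5A2, had 1930 and 2225 in E8, 1736 after 12 h, 1710 and 1800 after 24 h, and 1770 and 1942 after 48 h and did not pass.

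Higher at 24 h were COL26A1 and COL18A1, both rich in GC. COL26A1 had 2251 and 3536 normalised reads in E8, 3897 after 12 h, 4952 and 4536 after 24 h, and 3561 and 3704 after 48 h (1.68-fold higher at 24 h, limma adjusted p = 0.0052). The log2 fold change of COL26A1 at 24 h was 0.75, and 0.52 with the GC trend removed (limma adjusted p = 0.0027). Over all alternatives it ran from 0.42 to 1.07. COL18A1 had 6028 and 10542 in E8, 8743 after 12 h, 11465 and 12494 after 24 h, and 9361 and 11055 after 48 h. Its log2 fold change of 0.59 at 24 h (limma adjusted p = 0.037) was 0.33 with the GC trend removed (limma adjusted p = 0.065) and 0.18 without E8 replicate 1 (limma adjusted p = 0.44), and it had a limma adjusted p of 0.095 without 24 h replicate 2. COL18A1 shares 16.4% of its exon length with SLC19A1 on the opposite strand, and whether reads were counted by strand is not given in the sources used here.

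Laminins are trimers of an alpha, a beta and a gamma chain. Of the 10 tested laminin genes 2 were lower at 12 h (20%), 4 at 24 h (40%) and 2 at 48 h (20%), and 1 was higher at 48 h (10%). Among all tested genes 4.89%, 7.56% and 6.45% were lower at these times, and 5.08% were higher at 48 h. Their median log2 fold change was -0.48, -0.57 and -0.48 at 12, 24 and 48 h. LAMC3, a gamma chain with a narrow tissue range, was lower at all 3 times. LAMC3 (chromosome 9 at 131009082 to 131094473) had 538 and 766 normalised reads in E8, 237 after 12 h, 321 and 315 after 24 h, and 246 and 227 after 48 h. All 5 treated libraries lay below both E8 libraries. Its log2 fold changes were -1.43 ± 0.23 (SE), -1.01 ± 0.19 and -1.44 ± 0.19 at 12, 24 and 48 h, with limma adjusted p of 0.00049, 0.0012 and 2.7e-05. LAMC1, the common gamma chain, had 5583 and 5226 in E8, 5986 after 12 h, 4748 and 5678 after 24 h, and 6616 and 5550 after 48 h and passed in no comparison.

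LAMB1 and LAMB2, the beta chains that distinguish laminin-511 from laminin-521, lay on opposite sides of E8. LAMB1 had 3710 and 3527 normalised reads in E8, 2396 after 12 h, 1992 and 2370 after 24 h, and 2953 and 2686 after 48 h. Every treated library of LAMB1 lay below E8, the 24 h libraries lowest. Its log2 fold change was -0.59 at 12 h (limma adjusted p = 0.044), -0.73 at 24 h (limma adjusted p = 0.0018, and 0.069 without 24 h replicate 1) and -0.36 at 48 h (limma adjusted p = 0.11). The 12 h call was lost without any 1 of the 24 h or 48 h libraries, with limma adjusted p between 0.071 and 0.075. LAMB2 had 994 and 1244 in E8, 1471 after 12 h, 1481 and 1553 after 24 h, and 1788 and 1534 after 48 h. All treated libraries of LAMB2 lay above E8, and it passed at 48 h (log2 fold change 0.58, limma adjusted p = 0.019). That call was lost without E8 replicate 1 (limma adjusted p = 0.058), 48 h replicate 1 (0.24) or 48 h replicate 2 (0.056). Per kilobase, the ratio of LAMB1 to LAMB2 was 3.15 and 2.39 in E8 and lay between 1.13 and 1.48 in the 5 treated libraries.

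Of the alpha chains, LAMA1 had 4571 and 4462 normalised reads in E8, 3476 after 12 h, 2994 and 3872 after 24 h, and 4970 and 3847 after 48 h, and LAMA5, the alpha chain of laminin-511 and laminin-521, had 2874 and 3330, then 3262, then 2777 and 3260, then 3069 and 2898. Neither passed, with a lowest limma adjusted p of 0.083 for LAMA1 at 24 h and 0.85 for LAMA5 at 12 h. LAMA2, the alpha chain of muscle laminin, had 191 and 216 in E8, 135 after 12 h, 122 and 101 after 24 h, and 140 and 127 after 48 h and was lower at 24 h (log2 fold change -0.87, limma adjusted p = 0.0089, and 0.091 without 24 h replicate 2). LAMA3, the alpha chain of laminin-332, had 41.9 and 24 in E8, 11.8 after 12 h, 6.25 and 13.1 after 24 h, and 7.56 and 12.9 after 48 h. LAMA3 passed at 24 h (log2 fold change -1.70, limma adjusted p = 0.037), on 6 and 14 reads against 48 and 29. Without E8 replicate 1 the adjusted p was 0.27 in limma, and without 24 h replicate 1 it was 0.28.

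NID1, FN1 and HSPG2 were lower than E8 at 24 h, 3 of the 5 glycoproteins (60%, against 7.56% of all tested genes). At 48 h 0 of the 5 passed limma, edgeR or DESeq2, with 1 at an unadjusted p under 0.05 in limma, 0 in edgeR and 1 in DESeq2. NID1, the linker of laminin and collagen IV (chromosome 1 at 235975830 to 236065162), had 1901 and 1909 normalised reads in E8, 1272 after 12 h, 807 and 1216 after 24 h, and 1952 and 1519 after 48 h. NID1 was 1.92-fold lower at 24 h (log2 fold change -0.94, limma adjusted p = 0.0013) and rose 1.74-fold between 24 h and 48 h (0.80, limma adjusted p = 0.027). The rise rests on single libraries, with a limma adjusted p of 0.59 when 24 h replicate 1 was left out and 0.5 when 48 h replicate 1 was. The 24 h difference had a limma adjusted p of 0.059 without 24 h replicate 1. FN1, fibronectin, had 7266 and 7022 in E8, 4338 after 12 h, 3341 and 4752 after 24 h, and 7518 and 5313 after 48 h. FN1 was 1.65-fold lower at 12 h (limma adjusted p = 0.042) and 1.79-fold lower at 24 h (limma adjusted p = 0.0025, and 0.074 without 24 h replicate 1). Its difference between 24 h and 48 h did not pass (log2 fold change 0.67, limma adjusted p = 0.065). Among the alternatives, the FN1 difference passed in DESeq2 (adjusted p = 0.045) and with replicate numbers as a block (limma adjusted p = 0.015). It also passed with the compared groups alone (limma adjusted p = 0.0012), but not in edgeR or with TMM factors.

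HSPG2, perlecan, had 3413 and 4124 normalised reads in E8, 2473 after 12 h, 2103 and 3152 after 24 h, and 3392 and 2635 after 48 h, and passed at 24 h (log2 fold change -0.54, limma adjusted p = 0.041). Without 24 h replicate 1 its log2 fold change was -0.25 (limma adjusted p = 0.59), and without E8 replicate 2 the adjusted p was 0.062. HSPG2 shares 11.7% of its exon length with LDLRAD2 on the opposite strand. In the 24 h pair, replicate 1 was the lower library for NID1, FN1, HSPG2, LAMB1 and LAMA1. NID2, the other nidogen, had 162 and 175 in E8, 152 after 12 h, 142 and 158 after 24 h, and 174 and 167 after 48 h and passed in no comparison. SPARC had 4873 and 5390 in E8, 7598 after 12 h, 6046 and 6021 after 24 h, and 4288 and 4122 after 48 h. The fall of SPARC between 24 h and 48 h did not pass in limma on all libraries or in edgeR. It passed in DESeq2 (log2 fold change -0.52, adjusted p = 0.013) and with the GC trend removed (-0.48, limma adjusted p = 0.016). SPARC rose 1.48-fold at 12 h (limma adjusted p = 0.042), a call that was lost without any 1 of the 24 h or 48 h libraries (limma adjusted p between 0.072 and 0.08).

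**Figure D4:**
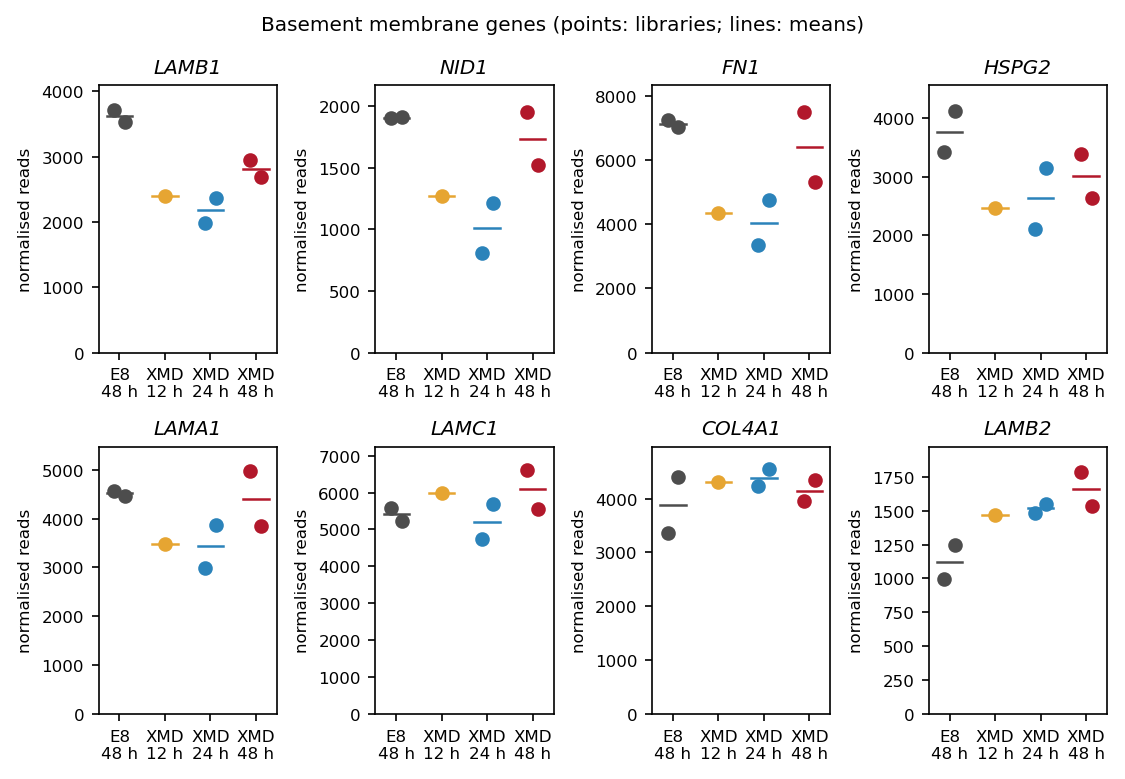
Normalised reads of LAMB1, NID1, FN1, HSPG2, LAMA1, LAMC1, COL4A1 and LAMB2 by group; points are libraries and lines group means. LAMB1, NID1 and FN1 have their lowest means at 24 h (2181, 1011 and 4047), LAMC1 and COL4A1 pass in no comparison, and LAMB2 lies above E8 in all treated libraries.

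Of 14 tested integrins 1 was lower at 12 h (7.14%), 3 were lower (21.4%) and 1 higher (7.14%) at 24 h, and 3 were lower at 48 h (21.4%). Among all tested genes 4.89%, 7.56% and 6.45% were lower at 12, 24 and 48 h, and 8.66% were higher at 24 h. The median log2 fold change of the integrins was -0.04, -0.36 and -0.44 at these times. ITGB5, the beta chain that pairs with ITGAV to bind vitronectin, passed at all 3 times (chromosome 3 at 124761948 to 124901418). ITGB5 had 9117 and 11471 normalised reads in E8, 5707 after 12 h, 7385 and 7265 after 24 h, and 5419 and 5242 after 48 h. All treated libraries lay below E8, the 24 h pair above the other treated libraries. Its log2 fold changes were -0.84 ± 0.18 (SE), -0.48 ± 0.14 and -0.94 ± 0.14, with limma adjusted p of 0.0047, 0.027 and 0.00016. The 24 h call was lost without 24 h replicate 1 (limma adjusted p = 0.16), 24 h replicate 2 (0.15) or E8 replicate 2 (0.06). ITGAV, its partner, had 1792 and 1450 in E8, 1613 after 12 h, 1399 and 1482 after 24 h, and 1279 and 1596 after 48 h. The ITGAV groups overlapped and none passed, with a log2 fold change of -0.17 ± 0.16 (SE) at 48 h.

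ITGA6 and ITGB1 form the laminin receptor pair. ITGA6, which passed in no comparison, had 2785 and 2347 normalised reads in E8, 3045 after 12 h, 2572 and 2516 after 24 h, and 2581 and 2421 after 48 h, with a log2 fold change of -0.03 ± 0.14 (SE) at 48 h. ITGB1 had 10515 and 8802 in E8, 7707 after 12 h, 6966 and 7080 after 24 h, and 8631 and 8320 after 48 h. Each treated library of ITGB1 lay below both E8 libraries, and it passed at 24 h (log2 fold change -0.45, limma adjusted p = 0.031). That call was lost without any 1 of E8 replicate 1 (limma adjusted p = 0.1), 24 h replicate 1 (0.22), 24 h replicate 2 (0.16), 48 h replicate 1 (0.054) or 48 h replicate 2 (0.052).

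ITGA9, which binds tenascin and the spliced EDA segment of fibronectin, lies on chromosome 3 at 37452115 to 37823514. It had 499 and 535 normalised reads in E8, 331 after 12 h, 295 and 295 after 24 h, and 224 and 184 after 48 h, and E8 lay above all treated libraries. ITGA9 was 1.75-fold lower at 24 h (limma adjusted p = 0.0044) and 2.53-fold lower at 48 h (log2 fold change -1.34 ± 0.18 SE, limma adjusted p = 3.3e-05). Of the exon length of ITGA9, 6.5% is shared with ITGA9-AS1 on the opposite strand. ITGB8, which with ITGAV releases active TGFβ, had 147 and 108 in E8, 149 after 12 h, 124 and 123 after 24 h, and 60.5 and 87.3 after 48 h (log2 fold change -0.79 at 48 h, limma adjusted p = 0.042). Without 48 h replicate 1 its adjusted p was 0.37 in limma, and without E8 replicate 1 it was 0.23. ITGA3, a laminin-binding alpha chain, was higher at 24 h, at 1218 ± 97.8 against 859 ± 200 in E8 (SD, n = 2; log2 fold change 0.52, limma adjusted p = 0.04). The ITGA3 call was lost in limma without any 1 of E8 replicate 1, the 24 h libraries or the 48 h libraries, with adjusted p from 0.058 to 0.24.

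Integrins that did not pass included ITGA2, the collagen-binding alpha chain with the highest level per kilobase, which had 422 and 300 normalised reads in E8, 257 after 12 h, 253 and 263 after 24 h, and 238 and 279 after 48 h. ITGAE, the alpha chain that binds E-cadherin, had 295 and 321 in E8, 312 after 12 h, 331 and 367 after 24 h, and 393 and 421 after 48 h. For ITGA2 every treated library lay below E8, and for ITGAE every library at 24 h and 48 h lay above. ITGAE passed at 48 h with the GC trend removed (log2 fold change 0.43, limma adjusted p = 0.034). Summed per kilobase, the 16 integrins gave 4213 and 4259 in E8 and 3148 to 3319 in the 5 treated libraries, of which ITGB1 and ITGB5 make up the larger share. The same sum overlapped between E8 and treated libraries for the other classes: the collagens gave 4917 and 7282 in E8 and 5456 to 6566 treated, the laminins 1888 and 1920 against 1495 to 2016, and the glycoproteins 1966 and 2102 against 1591 to 2201.

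**Figure D5:**
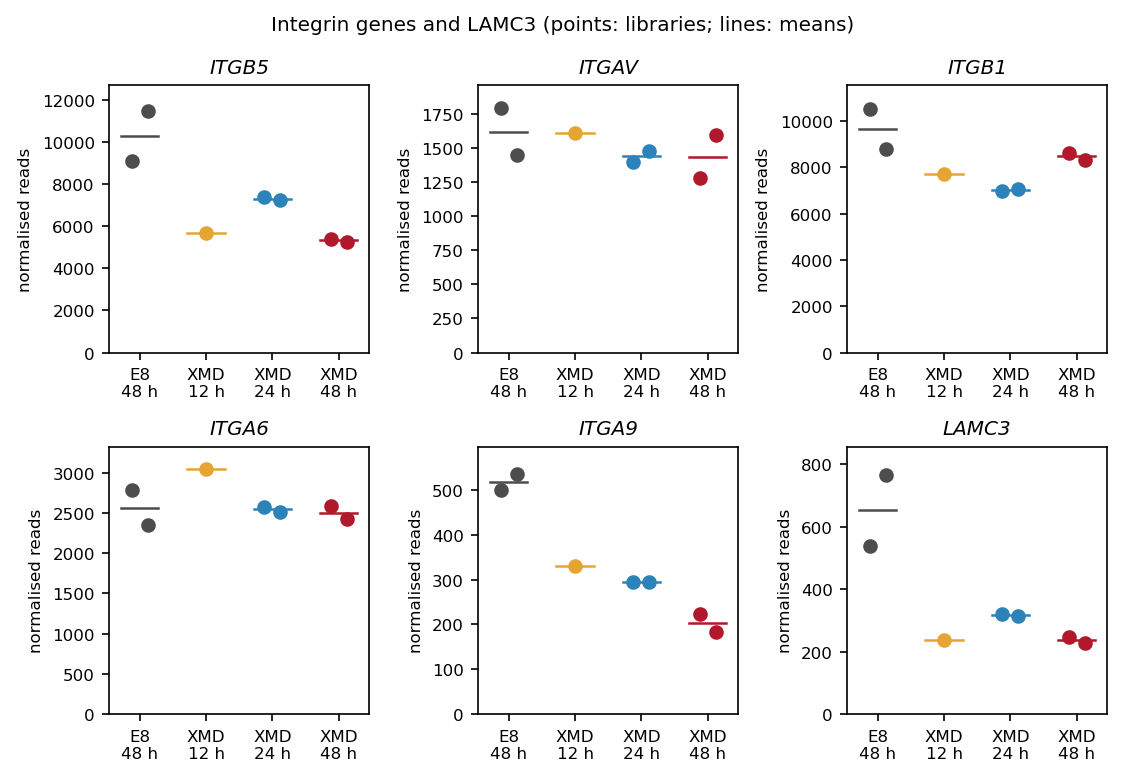
Normalised reads of the integrin genes ITGB5, ITGAV, ITGB1, ITGA6 and ITGA9 and of LAMC3 by group; points are libraries and lines group means. ITGB5, ITGA9 and LAMC3 lie below E8 in all treated libraries (means at 48 h of 5331, 204 and 237), while ITGAV and ITGA6 overlap with E8.

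Lists of other genes of matrix assembly and adhesion are given for context. Of 24 tested collagen folding and crosslinking enzymes, 2 were lower (8.33%) and 3 higher (12.5%) at 48 h, with a median log2 fold change of 0.05. Among all tested genes 6.45% were lower and 5.08% higher at 48 h. ADAMTS2, which removes the N-propeptide of procollagens, had 385 and 390 normalised reads in E8, 193 after 12 h, 191 and 224 after 24 h, and 191 and 153 after 48 h (log2 fold change -1.18 at 48 h, limma adjusted p = 0.00036). PCOLCE, which enhances removal of the C-propeptide, stood at 320 and 446 in E8 and 225 and 226 at 48 h (-0.74, limma adjusted p = 0.014). The crosslinking oxidases LOXL1 and LOXL2 were higher at 48 h, by 0.90 and 0.83 on the log2 scale (limma adjusted p = 0.0087 and 0.0017).

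Of 22 tested matrix proteases and inhibitors, 7 were lower (31.8%) and 1 higher (4.55%) at 48 h, against 6.45% and 5.08% of all tested genes. MMP9, a gelatinase, had 106 and 173 normalised reads in E8, 25.8 after 12 h, 15.6 and 16.8 after 24 h, and 17.3 and 26.8 after 48 h (log2 fold change -2.59 at 48 h, limma adjusted p = 6.1e-05). MMP24, a membrane-bound metalloprotease, and TIMP4, a metalloprotease inhibitor, changed by -1.93 and -1.61 at 48 h (limma adjusted p = 6.3e-07 and 0.00039). TNC, the tenascin that ITGA9 binds, and CD44, the hyaluronan receptor, were higher than E8 at 12 h and lower at 48 h, as were COL8A1, COL12A1 and COL1A1. TNC, named after its values were seen, had 61.1 and 71.9 in E8, 352 after 12 h, 84.4 and 100 after 24 h, and 25.9 and 30.7 after 48 h. CD44 had 34.9 and 61.1, then 181, then 64.6 and 77.6, then 29.2 and 13.9. The limma adjusted p at 12 h was 6.3e-05 for TNC and 0.0072 for CD44, and at 48 h it was 0.0044 and 0.037. CD44 was 1 of 2 lower genes at 48 h among 13 tested other matrix receptors, and the other was the glypican GPC4 (-0.60, limma adjusted p = 0.006). These 2 are 15.4% of that list, against 6.45% of all tested genes.

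Among 26 tested focal adhesion genes, which connect integrins to actin, 4 were lower at 48 h (15.4%), against 6.45% of all tested genes. At 24 h 4 were lower (15.4%) and 1 higher (3.85%), against 7.56% and 8.66%. FERMT1, a kindlin that activates integrins, had 1226 and 1120 normalised reads in E8, 764 after 12 h, 351 and 497 after 24 h, and 430 and 369 after 48 h (log2 fold change -1.55 at 48 h, limma adjusted p = 5.1e-06). The others lower at 48 h were LIMS2 (-2.44, limma adjusted p = 0.004), TNS3 (-0.83, limma adjusted p = 0.0015) and VCL, vinculin (-0.50, limma adjusted p = 0.029). Other matrix glycoproteins had 10 of 32 tested members lower (31.2%) and 1 higher (3.12%) at 48 h, against 6.45% and 5.08% of all genes. At 24 h 15 were lower (46.9%) and 3 higher (9.38%), against 7.56% and 8.66%. NPNT, a ligand of integrin alpha 8, had 28.8 and 35.5 in E8, 1.07 after 12 h, 5.21 and 6.55 after 24 h, and 5.4 and 7.93 after 48 h, with all treated libraries below E8. ELN, elastin, FREM1, of the basement membrane, and THBS4, a thrombospondin, changed by -1.72, -1.38 and -1.22 at 48 h (limma adjusted p = 0.0012, 0.0049 and 0.0014).

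Several of these 48 h calls outside the matrix set were lost without 1 library of E8 or of 48 h. Without E8 replicate 1 the limma adjusted p was 0.059 for LOXL1 and 0.11 for NPNT, and without E8 replicate 2 it was 0.058 for PCOLCE, 0.17 for CD44 and 0.11 for NPNT. Without 48 h replicate 1 it was 0.099 for PCOLCE, 0.099 for LOXL1, 0.067 for LOXL2, 0.061 for GPC4, 0.05 for TNC and 0.18 for NPNT. Without 48 h replicate 2 it was 0.085 for PCOLCE, 0.36 for CD44, 0.073 for GPC4, 0.053 for LIMS2, 0.053 for TNS3, 0.34 for VCL, 0.091 for FREM1 and 0.082 for NPNT. ADAMTS2, MMP9, MMP24, TIMP4, FERMT1, ELN and THBS4 passed at 48 h in each of these fits.

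Some marker levels moved with the groups. KDR, counted here as an endothelial marker, was at 2743 and 2527 normalised reads in E8 and at 960 to 1258 in the 5 treated libraries. It supplied nearly all of the endothelial sum. TEK, the other marker of that list, had 36.7 and 41.3 in E8, 45.1 after 12 h, 36.4 and 30.9 after 24 h, and 21.6 and 31.7 after 48 h. Both tested trophoblast and amnion markers, GABRP and KRT7, were lower at 12 h and 24 h (100%, against 4.89% and 7.56% of all tested genes), and 1 was at 48 h. NES, an intermediate filament of neural progenitors, had 6531 and 9960 in E8, 18781 after 12 h, 13605 and 11825 after 24 h, and 8001 and 8870 after 48 h, and like COL12A1 it was highest in the 12 h library. NES supplied nearly all of the summed neuroectoderm markers, and the others of that list had another course. SOX1, a transcription factor of neural progenitors, had 33.2 and 48.8 in E8, 45.1 after 12 h, 43.7 and 44 after 24 h, and 79.9 and 111 after 48 h (log2 fold change 1.21 at 48 h, limma adjusted p = 0.012, and 0.09 without E8 replicate 1 and 0.17 without 48 h replicate 2). FABP7 had 11.4 and 10.7, then 10.7, then 19.8 and 17.8, then 23.8 and 22.8, and passed in no comparison. THY1 likewise supplied nearly all of the summed mesenchyme markers, with 4966 and 5811 in E8, 3970 after 12 h, 5140 and 6055 after 24 h, and 6093 and 5345 after 48 h, and passed in no comparison. PDGFRB, a receptor of mesenchymal cells, had 63.7 and 66.9 in E8, 33.3 after 12 h, 25 and 22.4 after 24 h, and 18.4 and 33.7 after 48 h. It was lower at 24 h and 48 h (log2 fold change -1.43 and -1.35, limma adjusted p = 0.011 and 0.018), with a 48 h value of 0.057 without E8 replicate 1 and 0.24 without 48 h replicate 1. The part of these markers in the collagen values was not tested.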

How the data were processed

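The deposited values are a normalised signal: reads per gene, scaled by the authors with 1 factor for each library, as the values show, 100% of which were within 0.1 of a whole number of reads once the factor was undone. The submitters' processing notes name Trimmomatic 0.36, STAR, featureCounts 1.5.3, DESeq2 1.26.0 and hg38; annotation, strand setting and handling of shared reads are not given in the sources used here. The table's 2 further columns match no sample and were not used. Members and gene lists were chosen with earlier results of these data known. Genes with a mean of 10 or more (16351) entered limma 3.58.1 (R 4.3.3) on log2(value + 1), with 1 mean per group over all 7 libraries and a trended prior (residual df 3, prior df 18.4), so a fold change understates that of low genes. P-values were Benjamini-Hochberg adjusted over all tested genes and called under 0.05. Coordinates, exon lengths and GC content are from GENCODE 29 (GRCh38), which matched all 71 members. Promoters are from RefSeq (GRCh38.p14). Library totals, 18528689 to 24148186, count listed genes and limit low members most. The genes given by library are the 25 with the largest passing change, the highest of each class per kilobase, the glycoproteins, the stem cell laminin and vitronectin receptors, the chains of laminin-511 and laminin-521, and collagen IV; from other lists, up to 4 passing genes with the largest 48 h change. Some genes that meet this rule or are counted above are not reported here. The alternatives tried were a pseudocount of 0.5 or 5, no filter or one at 50, TMM factors (edgeR 4.0.16), equal totals, edgeR and DESeq2 1.42.0 on recovered reads, robust moderation, the compared groups alone, replicate numbers as a block, removal of each library's GC trend (loess, span 0.3), and leaving out each library; GC removal without an E8 library was added after seeing the data.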

Additional observations from a re-analysis of the deposited data

Results flagged for a closer look

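The change against E8 differed between 48 h and 24 h for 5 matrix genes, by the limma contrast of 48 h with 24 h, in which the shared E8 libraries drop out. The difference (48 h minus 24 h, log2) was -3.03 for COL8A1, -1.39 for COL12A1 and -1.34 for COL1A1, which were lower at 48 h. It was 0.86 for COL2A1 and 0.80 for NID1, which were higher at 48 h. COL8A1, COL12A1 and COL1A1 passed under every alternative, while the COL2A1 call was lost in 8 alternatives and the NID1 call without 24 h replicate 1 or 48 h replicate 1.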

How the results depend on the processing

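Of the 57 combinations of member and comparison that passed, 23 passed under every alternative and 42 under every alternative that used all libraries, and none reversed. With all libraries, 27 of 663 tests of these combinations were lost, and without 1 library 95 of 501. The 15 combinations lost in a fit of all libraries were COL11A1, COL6A1, LAMB1, SPARC and COL25A1 at 12 h, COL18A1, COL4A3, HSPG2, ITGA3, ITGB1 and LAMA3 at 24 h, COL4A3, COL9A1 and ITGB8 at 48 h, and COL2A1 between 24 h and 48 h. Of 2752 tests of the combinations that did not pass, 149 passed under an alternative, 42 of them among the 1573 with all libraries. Removing the GC trend added COL16A1, COL1A2, COL26A1, COL27A1, COL4A5, COL4A6, COL6A2, COL9A3, ITGA5, ITGAE, LAMB1 and SPARC at 48 h. The number of members passing was 17 at 48 h, 23 at 24 h, 12 at 12 h and 5 between 24 h and 48 h. Removing the GC trend gave 29 at 48 h, 20 at 12 h and 8 between 24 h and 48 h. A fit of the compared groups alone gave 15 between 24 h and 48 h. Leaving out 1 library gave 10 to 25 at 48 h, 10 to 30 at 24 h, 10 to 22 at 12 h and 3 to 17 between 24 h and 48 h. Removing the GC trend without E8 replicate 2, added after seeing the data, gave 20 at 12 h, and without either E8 library 12 between 24 h and 48 h. With the GC trend left in, the members' 48 h median was -0.43 without E8 replicate 1 and -0.26 without E8 replicate 2. That of all genes was 0.01 in both. The cause of these shifts was not tested. Same-numbered libraries of different groups correlated at -0.04 to -0.07 in their deviations from group means. This cannot show whether they shared a culture or a batch. With that number as a block, 19, 24, 9 and 7 members passed at 48 h, 24 h, 12 h and between 24 h and 48 h. Among all genes 1955, 2630, 1231 and 290 passed. The block took away the 12 h calls of COL11A1, COL6A1, LAMB1 and SPARC (limma adjusted p 0.061 to 0.092). Members with few reads (COL4A3, COL6A3, LAMA3) are limited by counting error, and the 12 h comparison by its single library.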
